A study of Oryctolagus cuniculus with 6 samples.

Results

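The tumor necrosis factor (TNF) superfamily comprises membrane-bound or shed ligands and the receptors that bind them. Its ligands act as trimers, and receptor clustering recruits TRAF adaptors that activate NF-κB, or, for receptors with a death domain, can start apoptosis. Individual pairs direct inflammation, lymphocyte co-stimulation, B cell survival, bone resorption and tissue remodelling, and in injured peripheral nerve TNF is known as an early product of Schwann cells and recruited macrophages. The family was taken from the gene names in the count files. Genes named TNFSF or TNFRSF followed by a number were included, together with TNF, LTA, LTB, LTBR, CD27, CD40, CD40LG and CD70, and 1 receptor was left out. This gave 30 of the 17396 genes in the files, of which 15 are ligands and 15 are receptors.

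RNA-seq libraries came from the facial nerves of 6 wild type rabbits, 3 per group, which the study describes as male Japanese white rabbits aged 3 to 4 months. Both groups had a transected facial nerve and were harvested at day 14. The FNI group (ctrl in the labels) had the transection alone, whereas the FNI+I-125 group (Itrans) also received an I-125 seed of 0.8 mCi beside the nerve. No inactive seed is described for the FNI group, so the implant and its radiation cannot be told apart.

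Total counts ran from 16031151 to 16798012 per library. Values are given as CPM (counts scaled to a common library size) after TMM scaling, and 25 of the 30 genes passed edgeR's filter on low counts and were tested. Schwann cell, macrophage and fibroblast markers were present in all 6 libraries, but the libraries were not alike in composition. Skeletal muscle markers summed to 4583 and 3960 CPM in FNI+I-125 replicates 1 and 2 and to at most 80.8 CPM in the other 4 libraries. FNI replicate 3 had the highest Schwann cell marker sum, at 35733 CPM against 3771 and 7053 CPM in the other FNI libraries, and the lowest macrophage marker sum, at 299.9 CPM. The Schwann cell sums of the FNI+I-125 nerves, from 707 to 3628 CPM, were all below those of the FNI nerves. FNI replicate 2 held 49732 CPM of salivary gland markers. In bulk tissue, fewer cells of a type and less RNA per cell cannot be told apart.

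TNF, LTB, TNFSF13B, CD40, TNFRSF9 and TNFRSF11B were higher in FNI+I-125 nerves than in FNI nerves at p under 0.05 before adjustment, and TNFSF12 was lower. None of the 25 tested members was called at an adjusted p under 0.05 with |log2 FC| of 1.5 or more, where 0% of all 14003 genes tested were called (edgeR's quasi-likelihood test, Benjamini-Hochberg adjustment). At the unadjusted p, 6 members were higher and 1 was lower, and over all genes the shares were 9.23% and 7.73%. The adjusted p of the members ran from 0.28 to 0.792. With DESeq2, 1 member was called, TNF, at shares of 2.08% higher and 1.26% lower over all genes. limma-voom called 0 members at the adjusted p, with 6 higher and 2 lower at the unadjusted p.

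Of the 30 members, 8 had all FNI+I-125 libraries above all FNI libraries and 2 had all of them below. The same was true of 14.8% and 12.3% of the genes tested, or of 12.7% and 10.7% of all genes in the files. The 8 higher members were TNF, LTB, TNFSF13B, CD40, TNFRSF9, TNFRSF11B, TNFRSF12A and CD27, and the 2 lower ones were TNFSF12 and TNFRSF19. For each of these 10, an exact two-sided permutation test on log2(CPM + 1) gave p = 0.1, the smallest p that 3 against 3 allow.

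**Figure D1:**
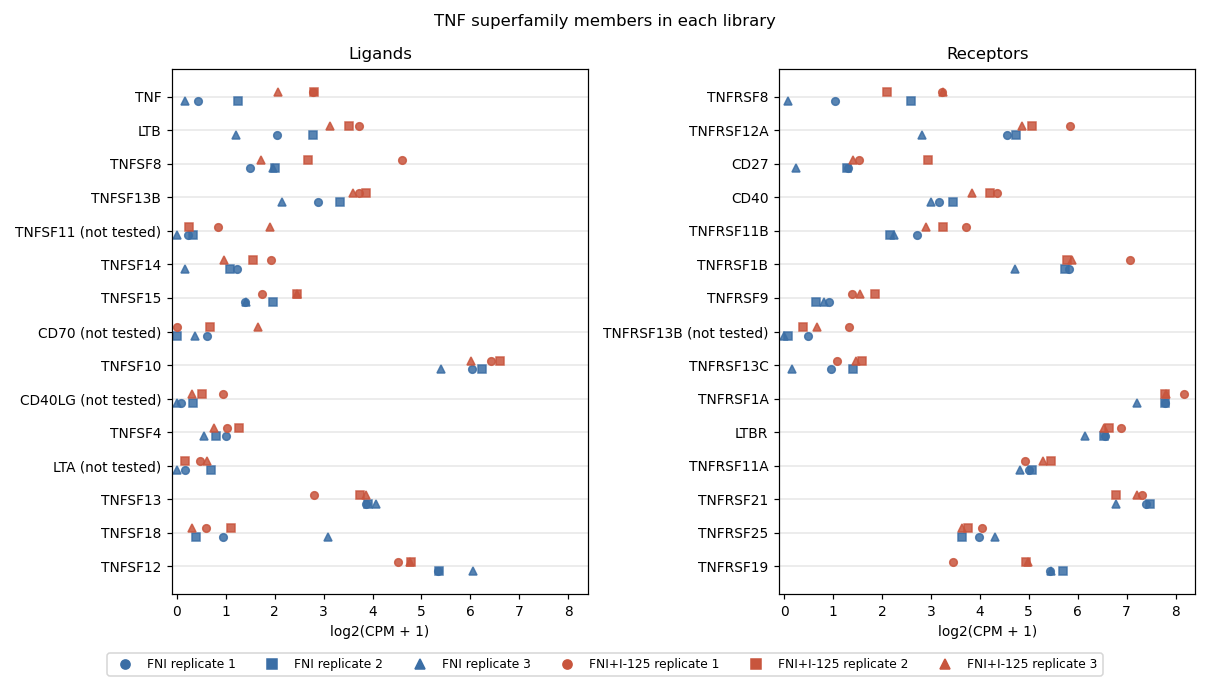
Each point is the log2(CPM + 1) of a gene in 1 library, with ligands on the left and receptors on the right, FNI libraries in blue and FNI+I-125 libraries in red. The red points of TNF, LTB and TNFSF13B lie to the right of all blue points, and those of TNFSF12 and TNFRSF19 lie to the left. Levels of different genes are not corrected for gene length.

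TNF, the inflammatory cytokine after which the family is named, had the largest log2 fold change of the members tested. It stood at 0.351, 1.39 and 0.118 CPM in FNI replicates 1, 2 and 3, from 6, 22 and 2 counts. The FNI+I-125 nerves held 5.88, 5.96 and 3.17 CPM, from 90, 98 and 54 counts. The lowest FNI+I-125 library was therefore above the highest FNI library. The group means were 0.618 ± 0.675 CPM and 5.01 ± 1.59 CPM (SD, n = 3 each), an 8.09-fold difference. Its fitted log2 fold change was 3.01 (95% interval 0.91 to 5.11, unadjusted p = 0.0127 and adjusted p = 0.28 by edgeR). It was 4.37 without FNI replicate 2 and from 2.51 to 3.25 without any other library. TNF passed the filter through its counts in the FNI+I-125 group, since 2 FNI libraries held under 10 counts.

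DESeq2 called TNF with a log2 fold change of 3.02 and an adjusted p of 0.0159. This call was lost without FNI replicate 1 (DESeq2, adjusted p = 0.0844), without FNI+I-125 replicate 1 (0.147) and without FNI+I-125 replicate 2 (0.127). Macrophage markers moved with TNF. The 10 markers found in the files summed to 828, 1075 and 299.9 CPM in FNI nerves and to 1666, 1933 and 1295 CPM in FNI+I-125 nerves. All 10 markers were detected in every library, and CSF1R and CD68 had the highest mean CPM of the list. Relative to macrophage markers (CPM over their summed CPM, in thousandths), TNF stood at 0.424, 1.29 and 0.394 against 3.53, 3.09 and 2.45. The groups still did not overlap on this scale. TNF was the only member of the 30 that was higher without overlap on it, and 9 were lower. Of all genes tested, 1.22% were higher and 63.7% lower on it. The log2 fold changes of the 10 markers themselves ran from 0.37 for C1QC to 3.20 for MSR1, so this scale depends on the markers summed. TNF relative to single markers was not tested.

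The receptors of TNF differed less between the groups. TNFRSF1A, the broadly expressed receptor with a death domain, stood at 219, 218 and 148 CPM in FNI nerves and at 286, 218 and 223 CPM in FNI+I-125 nerves. FNI+I-125 replicate 2 lay between the FNI values, and the log2 fold change was 0.32 (95% interval -0.20 to 0.83). TNFRSF1B, the receptor that prevails on leukocytes and endothelium, stood at 55.3, 52.3 and 25.4 CPM against 133, 54.3 and 58.2 CPM. FNI+I-125 replicate 1 was high and FNI replicate 3 low, while the other 4 libraries lay within 52.3 to 58.2 CPM. Its log2 fold change was 0.89 (95% interval -0.24 to 2.02), and 0.34 without FNI+I-125 replicate 1. In that library the 6 neutrophil markers found in the files summed to 1498 CPM, against 16.2 to 169.6 CPM in the other 5, and their part in the TNFRSF1B value was not tested.

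Lymphotoxin beta (LTB), a membrane ligand of lymphocytes that organizes lymphoid tissue, was also higher. It stood at 3.16, 5.92 and 1.30 CPM in FNI nerves and at 12.2, 10.4 and 7.81 CPM in FNI+I-125 nerves. The groups did not overlap, and the means were 3.46 ± 2.33 and 10.1 ± 2.19 CPM (SD, n = 3 each). This gave a log2 fold change of 1.55 (95% interval 0.20 to 2.89, adjusted p = 0.28 by edgeR), with 2.18 without FNI replicate 2 and 1.14 without FNI replicate 3. Its receptor LTBR stood at 92.7, 92.5 and 69.5 CPM against 117, 99.0 and 91.3 CPM, with a log2 fold change of 0.27 (95% interval -0.14 to 0.69). FNI+I-125 replicate 3 was below FNI replicates 1 and 2 for LTBR. Lymphotoxin alpha (LTA), which shares the TNF receptors, had 2, 10 and 0 counts against 6, 2 and 9 counts and was not tested.

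T and B cell markers stood beside LTB as follows. The 10 T cell markers, led by LCK and CD5 in mean CPM, summed to 15.2, 31.2 and 8.22 CPM in FNI nerves and to 33.7, 82.9 and 28.2 CPM in FNI+I-125 nerves. The 7 B cell markers found, led by CD22 and CD79B, summed to 10.8, 24.1 and 9.87 CPM against 37.3, 25.7 and 23.9 CPM. Both sums overlapped between the groups, and their part in the LTB value was not tested.

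TNFSF12 and its receptor TNFRSF12A differed in opposite directions. TNFSF12 encodes TWEAK, a widely expressed ligand, and TNFRSF12A encodes its receptor Fn14, known to be induced in injured tissue. TNFSF12 stood at 39.5, 40.3 and 65.8 CPM in FNI nerves and at 21.9, 26.8 and 26.3 CPM in FNI+I-125 nerves. All FNI+I-125 libraries were lower, and the means were 48.5 ± 14.97 and 24.99 ± 2.69 CPM (SD, n = 3 each). edgeR gave a log2 fold change of -0.96 (95% interval -1.54 to -0.37, unadjusted p = 0.00693 and adjusted p = 0.28 by edgeR), and -0.69 without FNI replicate 3, which held the highest value. DESeq2 gave it an adjusted p of 0.0208 at a log2 fold change of -0.97, short of the 1.5 criterion.

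TNFRSF12A stood at 22.6, 25.8 and 6.09 CPM in FNI nerves and at 56.7, 32.4 and 28.1 CPM in FNI+I-125 nerves. The groups did not overlap, although FNI+I-125 replicate 3 exceeded FNI replicate 2 by less than the spread within either group. edgeR estimated a log2 fold change of 1.11 (95% interval -0.28 to 2.49, unadjusted p = 0.0992 and adjusted p = 0.343 by edgeR). It was 0.67 without FNI replicate 3 and 0.74 without FNI+I-125 replicate 1. The lowest value was in FNI replicate 3, the library with the highest Schwann cell and lowest macrophage marker sums.

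**Figure D2:**
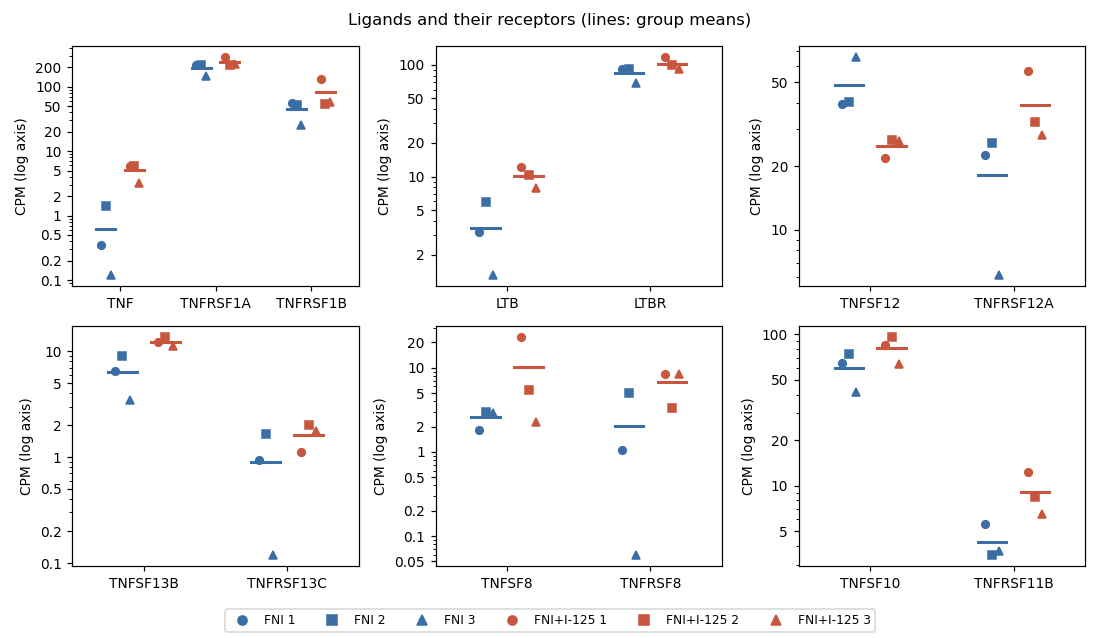
Ligands and receptors that bind each other are set side by side, with CPM on a log axis, points for single libraries and lines for group means. TNF and LTB show separated groups while the groups overlap for their receptors TNFRSF1A, TNFRSF1B and LTBR, and TNFSF12 is lower where TNFRSF12A is higher. Only the groups of 1 gene can be compared, since CPM is not corrected for gene length.

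The B cell survival ligands TNFSF13B (BAFF) and TNFSF13 (APRIL) had log2 fold changes of opposite sign, a difference that was not tested. TNFSF13B stood at 6.44, 9.07 and 3.43 CPM in FNI nerves and at 12.2, 13.6 and 11.2 CPM in FNI+I-125 nerves, without overlap. Its log2 fold change was 0.96 (95% interval 0.06 to 1.86, unadjusted p = 0.0397 and adjusted p = 0.286 by edgeR), and 0.65 without FNI replicate 3. Relative to macrophage markers (CPM over their summed CPM, in thousandths), TNFSF13B stood at 7.78, 8.44 and 11.4 against 7.30, 7.02 and 8.61, and the groups overlapped. TNFSF13 stood at 13.5, 13.9 and 15.8 CPM against 6.01, 12.5 and 13.6 CPM, with a log2 fold change of -0.43 (95% interval -1.23 to 0.37), or -0.14 without FNI+I-125 replicate 1. FNI+I-125 replicate 1 was low, and FNI+I-125 replicate 3 just exceeded FNI replicate 1.

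Receptors of these ligands were close to the detection limit. TNFRSF13C, the BAFF receptor of B cells, stood at 0.937, 1.64 and 0.118 CPM in FNI nerves and at 1.11, 2.01 and 1.76 CPM in FNI+I-125 nerves. Its log2 fold change was 0.86 (95% interval -1.17 to 2.89). TNFRSF13B (TACI), which binds both ligands, had 7, 1 and 0 counts against 23, 5 and 10 counts and was not tested. At this depth a count of 0 allows up to 3 counts, which is at most 0.196 CPM, for counting error only.

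Of the receptors that act in lymphocyte co-stimulation, CD40 and TNFRSF9 were higher in FNI+I-125 nerves at the unadjusted p. CD40, the receptor through which helper T cells license B cells, dendritic cells and macrophages, stood at 8.02, 9.89 and 6.97 CPM in FNI nerves and at 19.3, 17.5 and 13.4 CPM in FNI+I-125 nerves. The groups did not overlap, and the means were 8.30 ± 1.48 and 16.75 ± 3.06 CPM (SD, n = 3 each). Its log2 fold change of 1.01 had the smallest p-value of the 25 members tested (95% interval 0.46 to 1.57, unadjusted p = 0.00417 and adjusted p = 0.28 by edgeR). The value stayed between 0.89 and 1.16 with each library left out in turn. DESeq2 gave CD40 an adjusted p of 0.0107, again short of the fold change criterion. Relative to macrophage markers (CPM over their summed CPM, in thousandths), CD40 stood at 9.68, 9.20 and 23.3 against 11.6, 9.07 and 10.3, with overlap. Its ligand CD40LG, made mainly by activated T cells, had 1, 4 and 0 counts against 14, 7 and 4 counts and was not tested.

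TNFRSF9 (4-1BB), an activation-induced receptor of T and NK cells, stood at 0.878, 0.567 and 0.768 CPM in FNI nerves and at 1.63, 2.62 and 1.94 CPM in FNI+I-125 nerves. The values came from 15, 9 and 13 counts against 25, 43 and 33 counts, without overlap. FNI replicate 2 was under 10 counts, so TNFRSF9 passed the filter only with the FNI+I-125 libraries, where it was higher. The log2 fold change was 1.47 (95% interval 0.51 to 2.43, unadjusted p = 0.00935 and adjusted p = 0.28 by edgeR), and it stayed between 1.24 and 1.62 with each library left out. CD27, carried by T cells and memory B cells, stood at 1.46, 1.45 and 0.177 CPM against 1.90, 6.63 and 1.64 CPM. FNI+I-125 replicate 2, which had the highest T cell marker sum, held its highest value, and leaving it out brought the log2 fold change from 1.71 to 0.75. The ligand of CD27, CD70, had 9, 0 and 5 counts against 0, 10 and 37 counts and was not tested.

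TNFSF8 and its receptor TNFRSF8 (CD30), another pair of activated lymphocytes, overlapped between the groups. TNFSF8 stood at 1.82, 3.02 and 2.90 CPM in FNI nerves and at 23.2, 5.42 and 2.29 CPM in FNI+I-125 nerves. FNI+I-125 replicate 1 stood far above the rest, replicate 3 was among the FNI values, and the log2 fold change of 1.99 was 0.58 without replicate 1. TNFRSF8 stood at 1.05, 5.04 and 0.0591 CPM against 8.37, 3.29 and 8.51 CPM. FNI replicate 2 exceeded FNI+I-125 replicate 2, and the log2 fold change of 1.71 was 3.57 without FNI replicate 2.

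The remaining co-stimulatory members overlapped between the groups. TNFSF15 (TL1A), an endothelial and myeloid ligand, stood at 1.64, 2.90 and 1.65 CPM against 2.35, 4.50 and 4.52 CPM, with a log2 fold change of 0.88 (95% interval -0.14 to 1.90). Its receptor TNFRSF25, carried by T cells, stood at 14.8, 11.4 and 19.0 CPM against 15.4, 12.6 and 11.4 CPM, with a log2 fold change of -0.20 (95% interval -0.79 to 0.39). TNFSF14 (LIGHT), a T cell ligand that binds LTBR, stood at 1.35, 1.13 and 0.118 CPM against 2.81, 1.95 and 0.939 CPM. TNFSF4 (OX40 ligand), which antigen-presenting cells carry, stood at 0.996, 0.756 and 0.473 CPM against 1.05, 1.40 and 0.704 CPM. The log2 fold changes were 1.12 (95% interval -0.97 to 3.22) for TNFSF14 and 0.50 (95% interval -0.71 to 1.70) for TNFSF4.

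TNFSF18 (GITR ligand) had the most negative log2 fold change of the members, at -2.19 (95% interval -5.26 to 0.88), and it rested on 1 library. It counted 16, 5 and 128 reads in FNI nerves and 8, 19 and 4 in FNI+I-125 nerves. FNI replicate 3 held the 128 counts, and leaving it out gave 0.0096. The summed CPM of the 8 Schwann cell markers also peaked in FNI replicate 3. Among them PMP22, a myelin protein gene, stood there at 5620 CPM, against 412 and 852 CPM in the other FNI libraries. The part of Schwann cell content in the TNFSF18 value was not tested.

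Of the bone resorption system, the decoy receptor was higher. TNFRSF11B encodes osteoprotegerin, a soluble decoy for the osteoclast factor RANKL and for TRAIL. It stood at 5.56, 3.46 and 3.72 CPM in FNI nerves and at 12.2, 8.46 and 6.52 CPM in FNI+I-125 nerves, without overlap. The log2 fold change was 1.09 (95% interval 0.27 to 1.91, unadjusted p = 0.0173 and adjusted p = 0.28 by edgeR). TNFSF11, which encodes RANKL, had 3, 4 and 0 counts against 12, 3 and 47 counts and was not tested, and FNI+I-125 replicate 3 held most of its counts. TNFRSF11A, its signalling receptor RANK on osteoclast precursors, stood at 31.1, 32.5 and 27.1 CPM against 29.5, 42.7 and 38.3 CPM. FNI+I-125 replicate 1 lay within the FNI range, and the log2 fold change was 0.28 (95% interval -0.14 to 0.71).

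TNFSF10 (TRAIL), a ligand that can kill through death receptors, stood at 64.9, 74.4 and 41.4 CPM in FNI nerves and at 84.6, 96.0 and 63.8 CPM in FNI+I-125 nerves. FNI+I-125 replicate 3 was below FNI replicates 1 and 2, and the log2 fold change was 0.44 (95% interval -0.21 to 1.08). No TRAIL death receptor was among the 30 genes analysed here.

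TNFRSF19 and TNFRSF21 are the receptors of the family best known from neural cells. TNFRSF19 (TROY) stood at 42.5, 51.3 and 42.9 CPM in FNI nerves and at 9.94, 29.8 and 30.5 CPM in FNI+I-125 nerves. All FNI+I-125 libraries were lower, and the means were 45.6 ± 4.98 and 23.4 ± 11.7 CPM (SD, n = 3 each). The log2 fold change was -0.96 (95% interval -1.99 to 0.07, unadjusted p = 0.0625 and adjusted p = 0.308 by edgeR), and -0.60 without FNI+I-125 replicate 1. That library also had the lowest level of the Schwann cell marker SOX10, at 54.4 CPM, where FNI+I-125 replicates 2 and 3 had 133 and 222 CPM and the FNI libraries 229 to 276 CPM. The part of Schwann cell content in the TNFRSF19 value was not tested. TNFRSF21 (DR6), a death domain receptor of neurons and lymphocytes, stood at 166, 178 and 108 CPM against 158, 109 and 148 CPM. Its groups overlapped throughout, with a log2 fold change of -0.13 (95% interval -0.72 to 0.46).

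**Figure D3:**
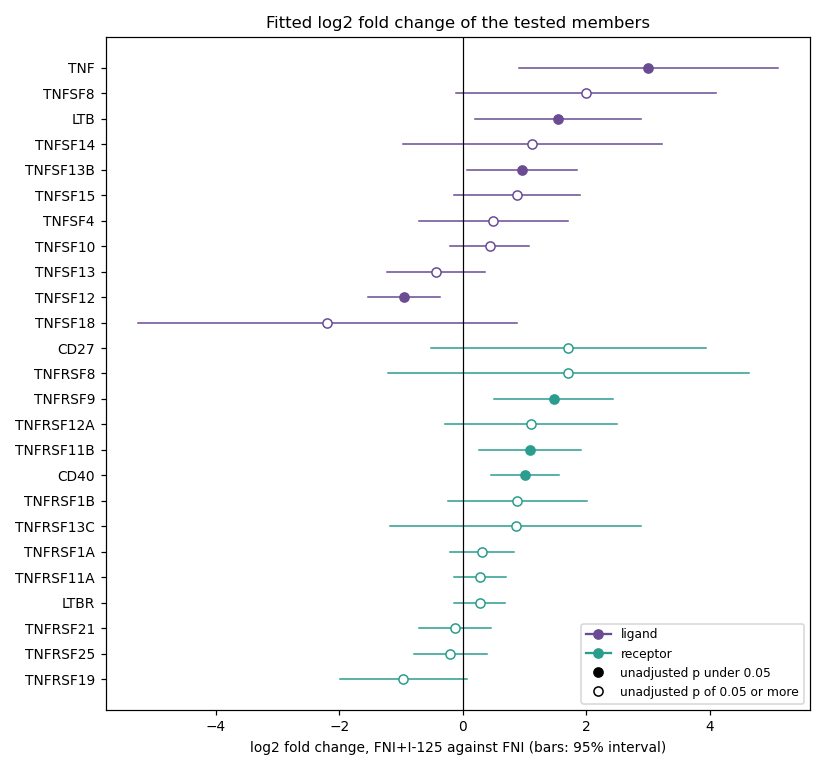
Points give the log2 fold change of FNI+I-125 against FNI from edgeR for the 11 ligands and 14 receptors tested, and bars give the 95% interval. Filled points mark an unadjusted p under 0.05, which 4 ligands and 3 receptors had, and no member was called at the adjusted p.

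Ligands and receptors were set against each other as groups, without a test. The median log2 fold change was 0.88 for the 11 ligands tested and 0.87 for the 14 receptors, where the median over all genes tested was 0.013. The ligands ranged from -2.19 to 3.01 and the receptors from -0.96 to 1.71. Higher values were found for 8 of the 11 ligands and 11 of the 14 receptors, where 51.1% of all genes were higher. A log2 fold change of 1 or more was found for 4 ligands and 6 receptors, a size that 8.16% of all genes reached, and -1 or less for TNFSF18, as for 7.6% of all genes. Of the 25 tested members, 8 had a library under 10 counts. Some of these, such as TNF and TNFRSF9, passed the filter through the group in which they were high. Among the 16 members at a mean of 5 CPM or more, a limit chosen after their values were seen, 11 were higher and the median was 0.38, where 52.3% of such genes were higher. Over all 30 members, tested or not, 12 ligands and 12 receptors had the higher mean log2(CPM + 1) in the FNI+I-125 group.

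Mean log2(CPM + 1) over the 15 ligands was 1.85, 2.03 and 1.77 in FNI nerves and 2.41, 2.40 and 2.28 in FNI+I-125 nerves. Over the 15 receptors it was 3.81, 3.89 and 3.25 against 4.29, 4.17 and 4.09. Both means were higher in every FNI+I-125 library than in any FNI library. FNI replicate 3 was the lowest library for 16 of the 25 tested members and the highest for 4. FNI+I-125 replicates 1 and 2 were the highest for 9 and 8 members. How often each library was lowest or highest over all genes was not counted, so these numbers describe the members alone.

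**Figure D4:**
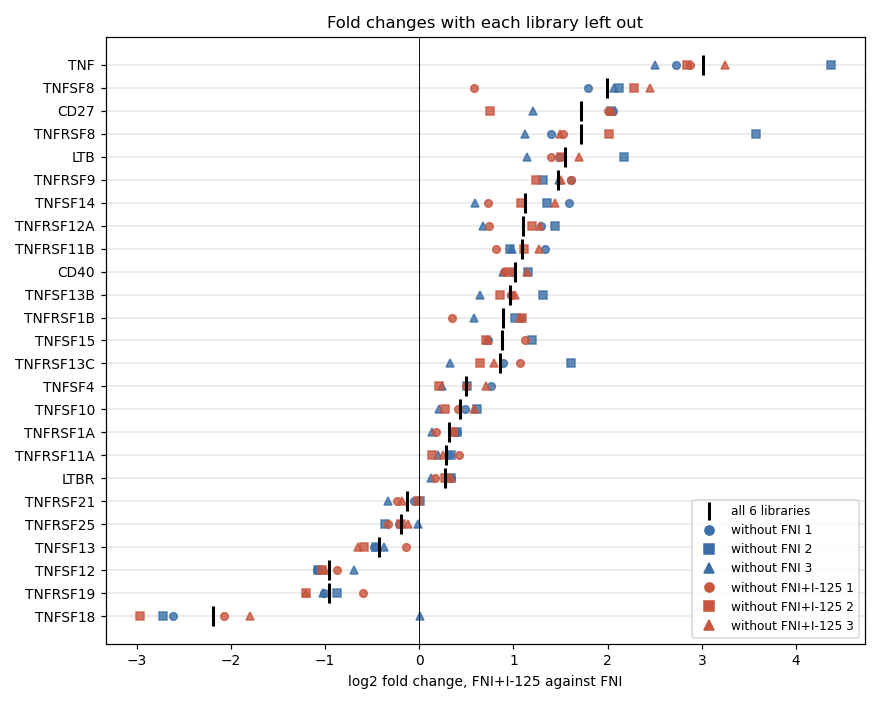
Each row shows the log2 fold change of 1 tested member with all 6 libraries (black bar) and with each library left out in turn (points). CD40 stays between 0.89 and 1.16 and TNFRSF9 between 1.24 and 1.62, TNFSF8 falls to 0.58 without FNI+I-125 replicate 1, and TNFSF18 falls to about 0 without FNI replicate 3.

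Family members that carry other names were described from a separate list of 7 genes, of which 6 were tested. In this list 3 genes were higher and 1 was lower at the unadjusted p, where 9.23% and 7.73% of all genes were. RELT, a receptor of lymphoid tissue, stood at 1.41, 1.01 and 1.18 CPM in FNI nerves and at 4.71, 4.20 and 3.70 CPM in FNI+I-125 nerves. Its log2 fold change was 1.80 (SE 0.30, edgeR adjusted p = 0.28), and DESeq2 called it with an adjusted p of 4.4e-04. EDA2R, a receptor for ectodysplasin that is also a known p53 target, stood at 2.93, 2.39 and 3.19 CPM against 6.60, 10.1 and 6.87 CPM, with a log2 fold change of 1.47 (SE 0.28). The ligand EDA stood at 12.5, 10.4 and 28.8 CPM against 3.73, 6.45 and 8.86 CPM, with a log2 fold change of -1.44 (SE 0.51), or -0.87 at the least with each library left out. FAS, a death receptor and p53 target, stood at 9.19, 10.4 and 9.57 CPM against 26.1, 14.7 and 11.6 CPM, with a log2 fold change of 0.84 (SE 0.32), or 0.43 at the least with each library left out. NGFR (log2 fold change -0.15) and EDAR (-0.51) overlapped between the groups, and FASLG was not tested.

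Adaptors, kinases and NF-κB subunits that act below these receptors were taken from a list of 36 genes, of which 31 were found and tested. At the unadjusted p, 5 were higher and 0 were lower by edgeR, where 9.23% and 7.73% of all genes were. The median log2 fold change was 0.26, against 0.013 over all genes. BIRC3, which encodes the ubiquitin ligase cIAP2 of receptor complexes and is itself an NF-κB target, stood at 30.8, 33.2 and 18.1 CPM in FNI nerves and at 125, 77.0 and 67.4 CPM in FNI+I-125 nerves. Its log2 fold change was 1.72 (SE 0.34, edgeR adjusted p = 0.28), and DESeq2 called it with an adjusted p of 7.7e-04. TNIP1, which restrains NF-κB with A20, had a log2 fold change of 0.59 (SE 0.12). ADAM17, the protease that sheds TNF and its receptors, stood at 89.3, 83.8 and 77.7 CPM against 134, 168 and 114 CPM, with a log2 fold change of 0.73 (SE 0.17). The lower genes of the smallest p-values were TRAF5, TAB1 and TRAF4, with log2 fold changes of -0.39, -0.36 and -0.31, and none had an unadjusted p under 0.05.

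Known target genes of TNF and NF-κB formed a list of 21 genes, of which 19 were tested. At the unadjusted p, 9 were higher and 0 were lower by edgeR, where 9.23% and 7.73% of all genes were. The median log2 fold change was 1.11, against 0.013 over all genes. The adhesion molecule SELE of activated endothelium stood at 5.62, 6.93 and 1.54 CPM in FNI nerves and at 41.6, 15.2 and 20.8 CPM in FNI+I-125 nerves, with a log2 fold change of 2.46 (SE 0.65). DESeq2 called SELE with an adjusted p of 0.00698. The NF-κB inhibitor NFKBIE had a log2 fold change of 1.11 (SE 0.27) and the transcription factor IRF1 of 1.25 (SE 0.35), both without overlap. GCH1 (-0.59) and VCAM1 (-0.11) were the 2 genes with a negative log2 fold change. NFKBIA and TNFAIP3, classical feedback inhibitors that are named after their values were seen, had log2 fold changes of 0.22 and 0.39 with overlap.

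**Figure D5:**
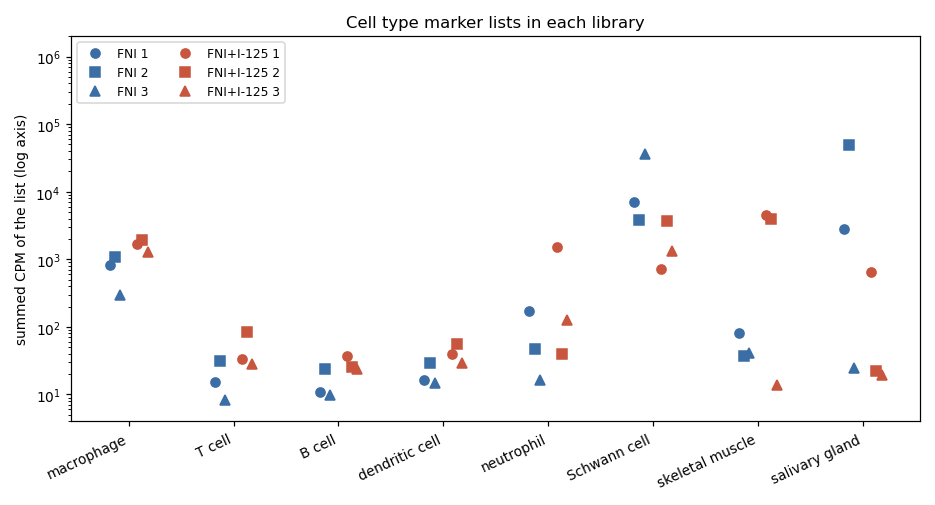
Points give the summed CPM of each cell type marker list in each library, on a log axis, with FNI libraries in blue and FNI+I-125 libraries in red. Macrophage marker sums are higher in all FNI+I-125 libraries (1295 to 1933 CPM) than in FNI nerves (299.9 to 1075 CPM), whereas T cell, B cell and neutrophil sums overlap.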

How the data were processed

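The 6 libraries hold mRNA of rabbit facial nerves, 3 per group. The authors deposited raw counts per gene, with no normalization and no pooling of replicates. The labels give stranded paired-end mRNA libraries, and the submitters' processing notes name HISAT2 and the build OryCun2.0. Versions and the counting program are not given in the sources used here. RefSeq's gene table is of another assembly (mOryCun1.1), so it served for names alone, no coordinates are given, and no LOC number mapped to a further member. It gave a symbol to 542 of 2992 LOC numbers.

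Tests used edgeR 4.0.16 (TMM, filterByExpr with a minimum count of 10, glmQLFit and glmQLFTest, two-sided, Benjamini-Hochberg over 14003 genes), DESeq2 1.42.0 and limma 3.58.1, in R 4.3.3. TMM factors ran from 0.923 to 1.06, and the biological coefficient of variation was 43.0%. CPM was computed on TMM-scaled library sizes, and log2(CPM + 1) uses a pseudocount of 1. A call needs |log2 FC| of at least 1.5 with an adjusted p below 0.05. The statistics were tested on simulated data. Single values were compared by an exact permutation test over the 10 splits. Members, roles, pathway lists, marker lists and tests were chosen with earlier results of these data known. Every member is named. Pathway genes are the 3 of smallest p in each direction, and markers the 2 of highest mean CPM, except where stated. DESeq2 with a library left out and scaling by macrophage markers were chosen after seeing the data. Depth limits precision for genes of few counts, and intervals cover no other error than the fit's. The labels do not say that libraries come from separate animals, which the study's methods state. Some items are not reported here.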

Additional observations from a re-analysis of the deposited data

How the results depend on the processing

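No member was called by limma-voom, nor by edgeR under any of its alternatives, which were library size only, upper-quartile scaling, library sizes without muscle and gland markers, testing every gene with a count, requiring 10 counts in each library, the replicate block and leaving out each library. DESeq2 called 1 member, TNF, and 289 higher and 175 lower genes in all, against 0 by edgeR. With a library left out, DESeq2 called 0 to 3 members, and edgeR called 0 to 38 higher and 0 to 2 lower genes, those above 0 without FNI+I-125 replicate 3. Members higher at the unadjusted p numbered 4 where at least 10 counts in every library were required, against 6. TNF and TNFRSF9 were not tested in that setting. Members lower at the unadjusted p numbered 2 with DESeq2, with limma-voom and with the replicate block, against 1, and 1 to 2 with a library left out. The median log2 fold change of receptors was 0.28 where at least 10 counts in every library were required, which left 17 members, against 0.87. With a library left out, that of ligands ran from 0.65 to 1.20 and that of receptors from 0.58 to 1.02. Members higher without overlap then numbered 8 to 14, and lower 2 to 4, in comparisons of 3 libraries against 2, where 14.4% to 18.6% and 14.2% to 17.6% of all genes in the files were. With CPM divided by macrophage marker CPM, 1 was higher and 9 were lower without overlap, where 1.22% and 63.7% of all genes were. With a library left out, the log2 fold change of TNFRSF21 ran from -0.34 to 0.0074, positive without FNI replicate 2, and that of TNFSF18 from -2.96 to 0.0096, positive without FNI replicate 3. The cause was not tested.

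Replicate numbers are shared by the groups. The deviations of same-numbered libraries had a Pearson's r across genes of 0.052, -0.19 and -0.14 for numbers 1, 2 and 3. Pairs of unlike numbers ran from -0.29 to 0.30. Such values cannot show whether same-numbered nerves were handled together. Outside the replicate block, the numbers are used only to name libraries. With the replicate block, 8 members were higher and 2 lower at the unadjusted p, and 0 were called.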

Other observations

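Divided by the macrophage marker sum of the same library, 9 members were lower without overlap in the FNI+I-125 group, namely LTBR, TNFRSF11A, TNFRSF19, TNFRSF1A, TNFRSF21, TNFRSF25, TNFSF10, TNFSF12 and TNFSF13. On this scale 63.7% of all genes tested were lower without overlap. TNFRSF1A, for example, stood at 264, 203 and 494 thousandths of the macrophage marker sum in FNI nerves and at 172, 113 and 172 in FNI+I-125 nerves.

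The mean log2(CPM + 1) of ligands minus that of receptors was -1.95, -1.85 and -1.48 in FNI nerves and -1.88, -1.77 and -1.81 in FNI+I-125 nerves. The groups overlapped, and FNI replicate 3 stood apart. Dendritic cell markers, 6 of which were found, summed to 16.2, 29.2 and 14.8 CPM against 39.7, 55.2 and 28.9 CPM. At the unadjusted p, 3 of the 6 were higher and 1 was lower by edgeR, where 9.23% and 7.73% of all genes were. The markers of highest mean CPM differed in direction. FLT3 stood at 5.21, 10.1 and 2.66 CPM against 9.15, 35.7 and 13.6 CPM, with overlap, and ZBTB46 at 8.26, 12.2 and 11.1 CPM against 7.78, 6.27 and 6.28 CPM, lower without overlap.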
